A study of Mus musculus with 4 samples.

Results

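The regions described here were places in the genome of mouse embryonic stem cells where chromatin immunoprecipitation sequencing gave a moderate REST signal together with a Ring1b signal and a signal for trimethylated lysine 20 of histone H4 (H4K20me3), and no region for MCAF1. There were 365 such regions among 2709 REST regions. They were chosen by the read numbers themselves: a REST region entered if its highest 1000 bp window held less than 20 times the background read number, if it overlapped a Ring1b region and an H4K20me3 region, and if it overlapped no MCAF1 region. The read numbers of all 4 libraries are therefore descriptions of the choice, and nothing was tested with them. They are called triple regions below.

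The libraries came from the V6.5 line (strain C57BL/6-129), maintained on a layer of irradiated mouse fibroblasts and taken off that layer for 1 passage (REST) or 2 passages (Ring1b, MCAF1 and H4K20me3). The labels name no genetic change and no treatment for any library. There was 1 library per antibody, each from a flow cell of its own, so antibody, passage number and sequencing run cannot be told apart. A library of input chromatin was not used here. Differences between libraries or between sets of regions were not tested for this reason, and the intervals given cover counting error only.

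REST is a zinc finger protein that binds a long DNA element near neuronal genes and recruits corepressors, so that these genes stay silent outside neurons. Ring1b (Rnf2) carries the histone H2A ubiquitin ligase activity of the Polycomb group, which in embryonic stem cells sits mainly at CpG-rich promoters of developmental genes. H4K20me3 is written by the SUV420H enzymes and is best known from pericentromeric and telomeric heterochromatin and from silenced repeats. MCAF1 (ATF7IP) binds SETDB1, the enzyme that trimethylates lysine 9 of histone H3 at silenced repeats.

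The steps of the choice show how the triple regions relate to the other REST regions. Of 2709 REST regions, 2356 lay under 20 times background. Of these, 996 overlapped a Ring1b region, 671 overlapped an H4K20me3 region, and 528 overlapped both. A MCAF1 region was also present at 163 of the 528, which left 365, or 13.5% of all REST regions. The number depended on the settings: it was 1225 at a probability of 1e-06 and 110 at 1e-12 in place of 1e-09, 145 with windows of 500 bp and 175 with all libraries thinned to the same depth. Above the limit of 20 times, 34 regions met the other conditions. Sets used for comparison were 394 REST regions under 20 times with a Ring1b region but neither H4K20me3 nor MCAF1, 104 with an H4K20me3 region but neither Ring1b nor MCAF1, 1199 with none of the other 3, and 302 strong REST regions of 20 times or more without MCAF1. A REST window was enriched at 0.1% of 4598722 windows with any read, a Ring1b window at 0.625%, an H4K20me3 window at 0.396% and a MCAF1 window at 0.0726%. The libraries held 3083311 (Ring1b), 3129369 (REST), 7782972 (H4K20me3) and 11023569 (MCAF1) distinct reads.

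Ring1b was usually the highest of the 4 signals in the triple regions and MCAF1 the lowest. In the highest REST window, the median was 18 REST reads (lowest 14, highest 47), 22 Ring1b reads (5 to 172), 30 H4K20me3 reads (3 to 70) and 20 MCAF1 reads (6 to 48). Divided by the background of each library, which is the larger of the genome mean and the mean over the surrounding 1 Mb, the median REST fold was 10.1 (range 6.34 to 19.5), the median Ring1b fold 11.9 (range 3.42 to 72.9), the median H4K20me3 fold 6.40 (range 0.454 to 19.8) and the median MCAF1 fold 3.25 (range 0.763 to 4.99). Ring1b had the highest of the 4 folds in 247 regions (67.7%, exact 95% binomial interval 62.6% to 72.4%), REST in 106 and H4K20me3 in 12. MCAF1 had the lowest in 341. Ring1b was also the highest in 60.2% of REST regions with Ring1b only (55.1% to 65.0%) and in 55.7% of those with a MCAF1 region (50.2% to 61.0%). The choice set an upper limit on REST and MCAF1 and none on Ring1b, so these ranks are in part a description of it. In the 175 regions called with all libraries thinned to the same depth, the median density over the region was 11.2 times the genome mean for both REST and H4K20me3. These regions were chosen anew, and 37.3% of the regions described here were found again. An H4K20me3 call needs a higher fold at lower depth, so the choice itself favours regions of higher H4K20me3 density after thinning. Whether REST stays above H4K20me3 at equal depth was therefore not tested.

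The REST, Ring1b and H4K20me3 values lay close to what a call needed. An average window needed 14 REST reads, or 10.3 times background, and 132 of the 365 regions had at most 16 REST reads in their highest window. REST was under 10 times in 174 regions, where the local background was above the genome mean, and at 15 times or more in 24. For H4K20me3 an average window needed 5.91 times background. In 78 regions the H4K20me3 fold in the highest REST window was below 5, since the H4K20me3 region only overlapped the REST region and its own highest window lay elsewhere. For Ring1b an average window needed 14 reads, or 10.4 times background, and the median fold was 11.9. Ring1b was below 5 times in 6 regions, a count not like that for H4K20me3 because the needed folds differ.

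The absence of a MCAF1 region did not mean that MCAF1 reads were sparse. MCAF1 reached at least 2 times background in 329 triple regions (90.1%, 86.6% to 93.0%) and at least 3 times in 214 (58.6%, 53.4% to 63.7%), and 83 regions lay between 4 times and the limit of 5. No triple region had 0 MCAF1 reads in its highest REST window. The median MCAF1 fold was 2.85 in REST regions with Ring1b but without H4K20me3, 3.04 in those with H4K20me3 but without Ring1b, 1.72 in REST regions without other calls and 2.29 in strong REST regions. When MCAF1 regions called at a probability of 1e-06 and 3 times background also excluded a REST region, 169 triple regions were left.

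**Figure D1:**
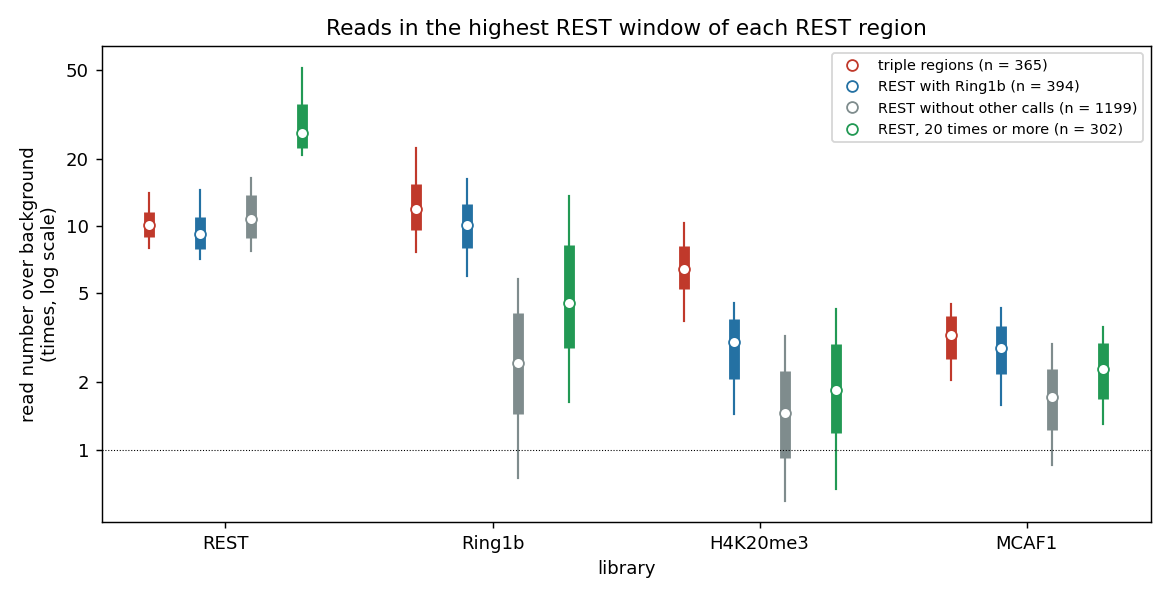
Read number over background (log scale) in the highest REST window, by library, for 4 sets of REST regions. Circles are medians, thick bars run from the 25th to the 75th percentile of regions and thin lines the 10th to 90th percentile; the medians in the triple regions are 10.1 (REST), 11.9 (Ring1b), 6.40 (H4K20me3) and 3.25 (MCAF1), and those in regions without other calls are 10.7, 2.43, 1.45 and 1.72.

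To find regions with a high value of each signal, the 365 were ordered by whichever of the REST, Ring1b and H4K20me3 folds was lowest. First came 69344001–69345000 of chromosome 17 (build mm8, as all positions here), where there were 19 REST reads (13.96-fold, exact 95% Poisson interval 8.41 to 21.8), 19 Ring1b reads (14.2-fold, 8.53 to 22.1), 57 H4K20me3 reads (16.6-fold, 12.6 to 21.6) and 14 MCAF1 reads (2.92-fold, 1.60 to 4.90). The next lay on chromosome 10 at 114991001–114992500, with 23 REST reads (14.98-fold), 26 Ring1b reads (19.4-fold), 46 H4K20me3 reads (13.6-fold) and 15 MCAF1 reads (3.06-fold). In both regions REST, Ring1b and H4K20me3 had intervals that overlapped each other, and MCAF1 lay below them. All 3 folds reached 10 in 30 of the 365 regions and 8 in 84.

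In 2 further regions of this group Ring1b stood above REST. On chromosome 11 at 16651501–16653000, 15 REST reads (11.02-fold, 6.17 to 18.2) stood beside 45 Ring1b reads (33.6-fold, 24.5 to 44.9), 66 H4K20me3 reads (19.5-fold, 15.1 to 24.8) and 22 MCAF1 reads (4.59-fold, 2.88 to 6.95). On chromosome 14 at 47595501–47596500, 19 REST reads (11.8-fold, 7.11 to 18.4) stood beside 88 Ring1b reads (28.9-fold, 23.2 to 35.6), 50 H4K20me3 reads (12.6-fold) and 25 MCAF1 reads (4.28-fold), inside a Ring1b region of 15000 bp. In both the Ring1b interval did not overlap that of REST, and on chromosome 11 it overlapped that of H4K20me3. On chromosome 4 at 56895501–56897000 the folds were 12.1 for REST (22 reads), 14.2 for Ring1b (22 reads), 12.4 for H4K20me3 (56 reads) and 2.16 for MCAF1 (14 reads), and the intervals of the first 3 overlapped.

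**Figure D2:**
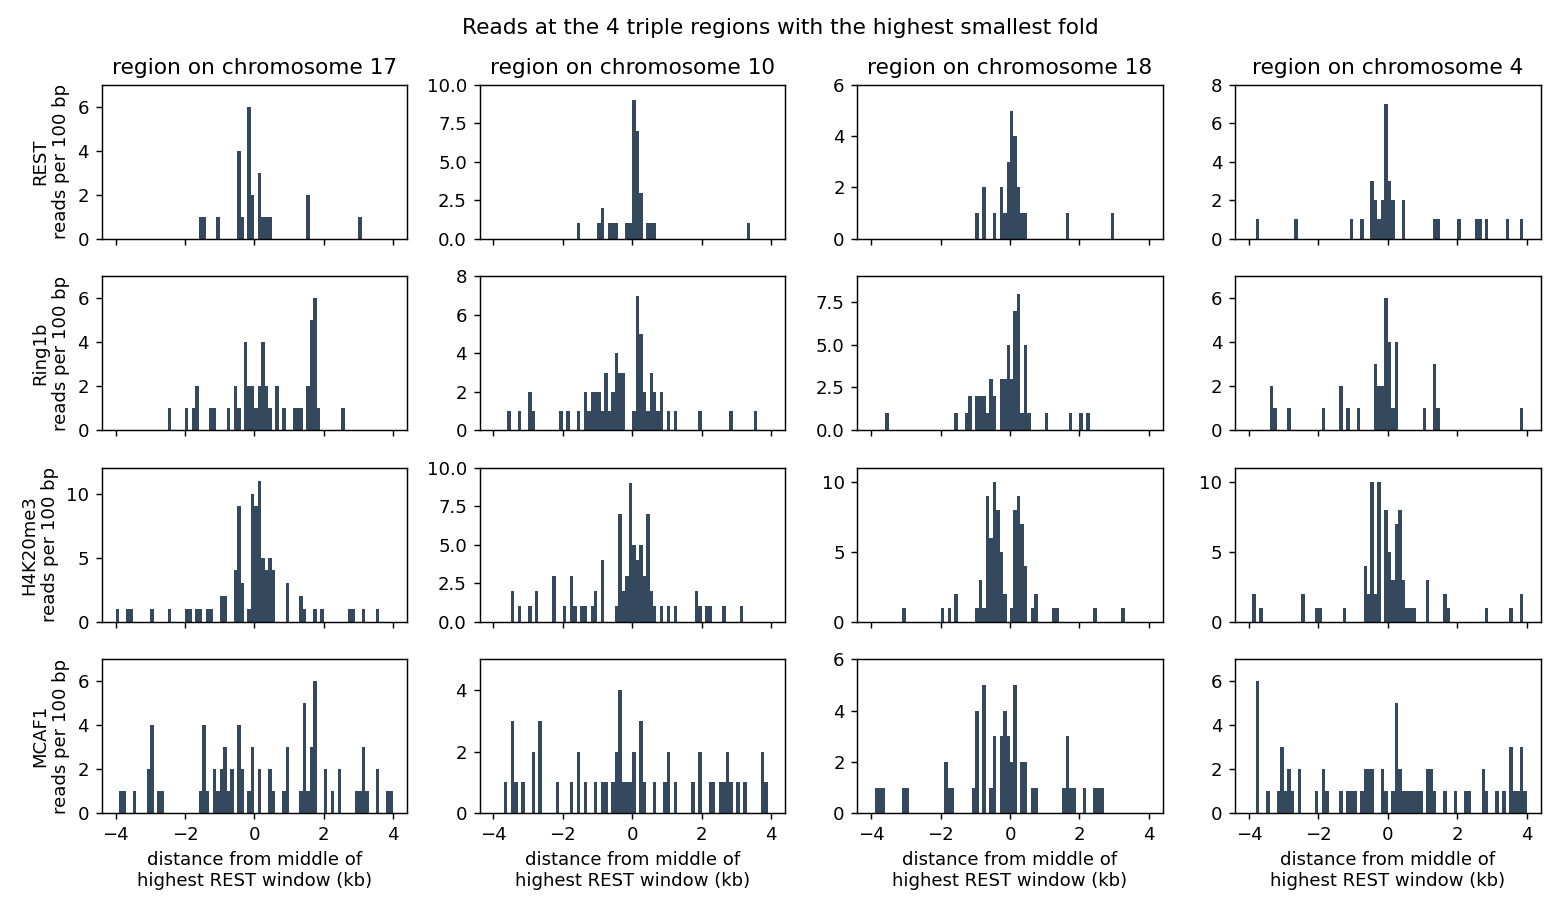
Reads per 100 bp in each library over 4 kb on either side of the middle of the highest REST window, for the first 4 triple regions in the order of their lowest fold among REST, Ring1b and H4K20me3. REST and H4K20me3 reads gather within 1 kb of the middle in each, and on chromosome 17 Ring1b and MCAF1 have a further group between 1 and 2 kb.

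The choice also had edges. Just inside the REST limit lay chromosome 2 at 130053501–130055000 (19.5-fold REST, 12.4-fold Ring1b, 4.90-fold H4K20me3 and 2.82-fold MCAF1), chromosome 11 at 74988501–74990500 (19.2-fold REST, 27 Ring1b reads, 5.42-fold H4K20me3 and 0.878-fold MCAF1) and chromosome 1 at 12975001–12977000 (19.1-fold REST, 16.8-fold Ring1b, 4.97-fold H4K20me3 and 4.08-fold MCAF1). Just outside lay chromosome 8 at 127678501–127680500 with 20.3-fold REST, chromosome 4 at 126255501–126257000 with 20.4-fold and chromosome 1 at 3660001–3661500 with 20.6-fold. The REST intervals of the regions on either side of the limit overlapped, for example 13.4 to 27.3 and 15.01 to 26.8. The lowest REST fold of all was 6.34 (22 reads), on chromosome 8 at 87552001–87553500, where Ring1b was 7.00-fold and H4K20me3 5.67-fold. The MCAF1 limit was nearly reached on chromosome 11 at 48660001–48661000, with 24 MCAF1 reads (4.99-fold, 3.20 to 7.43).

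The triple regions were narrow as called, which does not measure the spread of their reads. A call cannot be narrower than 1000 bp, and a region of that width is one in which a lone window passed. Their widths ran from 1000 to 2500 bp and 211 of 365 were 1000 bp wide, the size of 1 window (57.8%, 52.6% to 62.9%), a share like that of REST regions with Ring1b only (59.1%, 54.1% to 64.0%) or with H4K20me3 only (61.5%, 51.5% to 70.9%). It was 32.4% in REST regions without other calls (29.8% to 35.2%) and 0% in strong REST regions (0 of 302, up to 1.21%). The widest triple region lay on chromosome 8 at 108178501–108181000 (2500 bp), with 45 REST reads (17.5-fold, 12.8 to 23.4), 33 Ring1b reads (11.7-fold), 33 H4K20me3 reads (4.97-fold) and 28 MCAF1 reads (3.39-fold). The Ring1b and H4K20me3 regions that the triple regions overlapped were also narrow, with a median width of 1500 bp for each. A Ring1b region wider than 3 kb was overlapped by 37 triple regions (10.1%, 7.24% to 13.7%) and by 17 of the 394 REST regions with Ring1b only (4.31%, 2.53% to 6.82%).

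The choice asked for high REST, Ring1b and H4K20me3 and limited MCAF1 in the middle of the triple regions, so the height of the profiles there is a description of it. Around the middle of the triple regions the mean Ring1b density peaked at 22.9 times the genome mean in the bin centred at 100 bp (exact 95% Poisson interval 21.97 to 23.9) and was 18.6 and 18.8 times in the bins 300 bp to the left and right. H4K20me3 was flatter, with 9.85 and 9.67 times in the 2 central bins and 9.94 and 8.91 times in the bins 300 bp to the left and right. At 2 to 3 kb from the middle Ring1b was still at 3.18 times the genome mean, while REST (1.62), H4K20me3 (1.58) and MCAF1 (1.60) were close together. Compared with that level, the central 1 kb was 7.67 times as dense for REST, 5.70 times for Ring1b, 5.61 times for H4K20me3 and 2.63 times for MCAF1. In the REST regions with Ring1b but without H4K20me3, all 4 libraries were denser at 2 to 3 kb than beside the triple regions, with 2.23 times for REST, 3.75 for Ring1b, 2.01 for H4K20me3 and 1.80 for MCAF1.

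**Figure D3:**
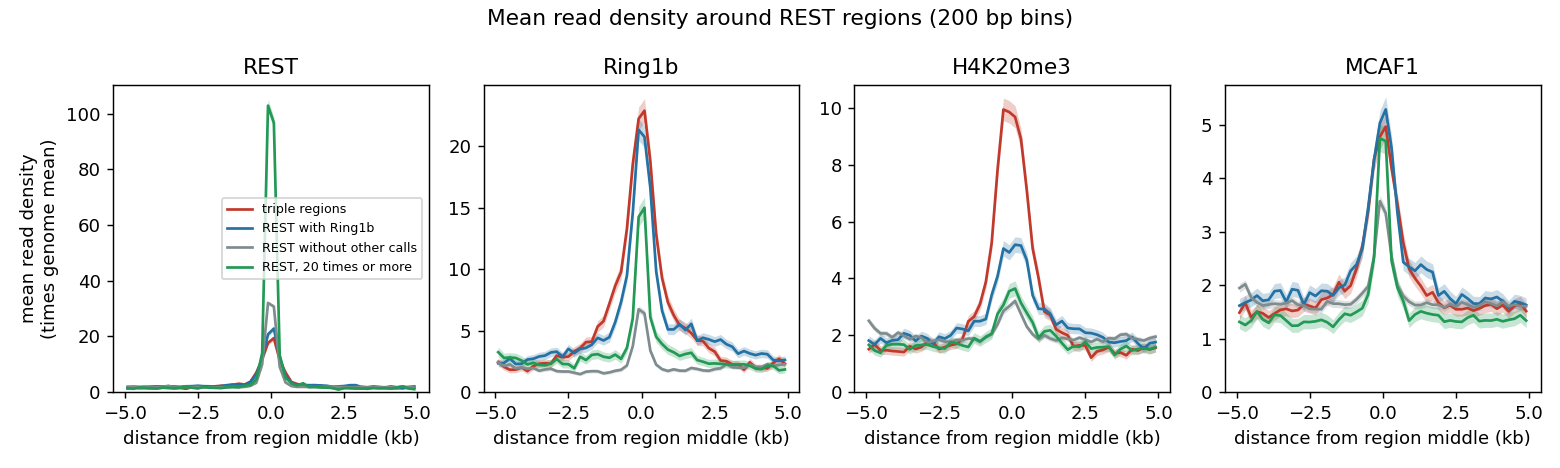
Mean read density in 200 bp bins as a multiple of the genome mean, against distance from the middle of the region, in 1 panel per library and with 4 sets of REST regions; shaded bands are exact 95% Poisson intervals. In the triple regions Ring1b peaks at 22.9 times and H4K20me3 forms a plateau near 9.9 times, and the strong REST regions stand above all others in the REST panel.

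The highest points of the signals lay near each other, with H4K20me3 farther from REST than Ring1b was. The summit of a library was taken as the fullest 200 bp stretch within 1 kb of the region. The choice asked for Ring1b and H4K20me3 regions that overlapped the REST region, and the search ended 1 kb from it. That the summits lay near each other is therefore in part a description of the choice, and no distance without binding was measured. The median distance from the REST summit was 200 bp for Ring1b (interval of the median 150 to 250), 250 bp for MCAF1 (200 to 300) and 350 bp for H4K20me3 (300 to 400). The Ring1b summit lay within 250 bp of the REST summit in 210 regions (57.5%, 52.3% to 62.7%) and the H4K20me3 summit in 134 (36.7%, 31.8% to 41.9%). Summits rested on few reads, with medians of 8 for REST, 10 for Ring1b, 15 for H4K20me3 and 9 for MCAF1 in the fullest stretch. The median distance of the H4K20me3 summit was 350 bp in REST regions with Ring1b only and in strong REST regions. It was 300 bp in those with H4K20me3 only and longer, at 500 bp (450 to 550), in regions without other calls. Ring1b distances were shorter in the other sets. The median distance of the Ring1b summit was 150 bp in REST regions with Ring1b only and in those with H4K20me3 only, 100 bp in regions without other calls and 50 bp in strong REST regions. In that order, these Ring1b summits rested on medians of 11, 6, 4 and 6 reads. Among tied stretches the middle one was taken, so distances at such low counts cannot be compared like for like between sets. The H4K20me3 summit lay within 250 bp of the REST summit in 36.5% of regions with Ring1b only, 39.4% of those with H4K20me3 only, 34.7% of those without other calls and 39.7% of strong regions.

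A protein bound at a point leaves plus-strand reads on one side and minus-strand reads on the other, at a distance set by the fragment length. The choice did not count pairs, but it moved the reads of each strand 75 bp in the 3′ direction before counting. It therefore favoured this order of strands, and a REST ratio above 1 is in part a description of the choice. All sets of REST regions were called in this way. In the triple regions, REST read pairs with the minus-strand read 40 to 300 bp beyond the plus-strand read numbered 12433, against 6731 pairs with the opposite order, a ratio of 1.85. The ratio was 2.19 in REST regions with Ring1b only, 1.87 in those with H4K20me3 only, 5.73 in REST regions without other calls and 10.8 in strong REST regions. Among regions with a REST fold of 8 to 14 the order was the same, with 1.66 in 287 triple regions, 1.89 in 242 regions with Ring1b only and 5.12 in 765 regions without other calls, whose median REST folds were 10.1, 9.59 and 10.3. In this range the pairs in the order that a bound point leaves were the more numerous in 80.5% of triple regions (75.4% to 84.9%) and 95.7% of the regions without other calls (94.0% to 97.0%). Within the triple regions the ratio was 1.45 for H4K20me3, 1.26 for MCAF1 and 1.19 for Ring1b, so REST had the highest of the 4. The regions were placed by the moved REST reads, and the other libraries were read in them. The ratio of REST therefore cannot be compared like for like with those of the other libraries. The labels give a gel cut of 150 to 350 bp for REST and H4K20me3 and of 150 to 300 bp for Ring1b and MCAF1, so antibody and gel cut cannot be told apart between these pairs of libraries; REST and H4K20me3 share a cut.

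**Figure D4:**
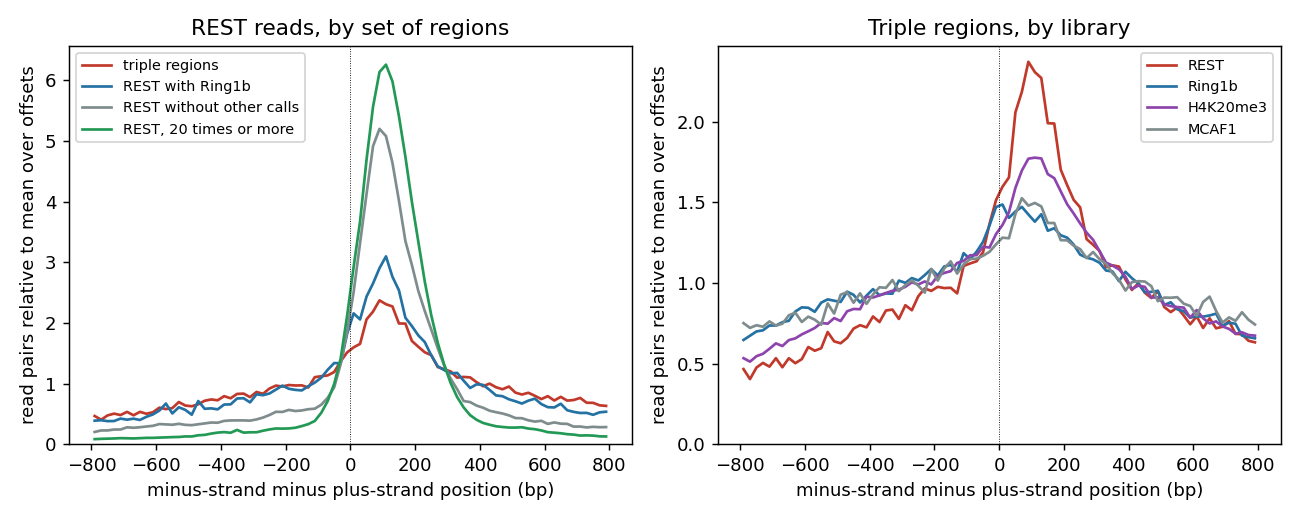
Number of read pairs by the minus-strand position minus the plus-strand position, in 20 bp steps and relative to the mean over all offsets within 800 bp. The left panel holds REST reads in 4 sets of regions, with the lowest peak in the triple regions (at 90 bp). The right panel holds the 4 libraries in the triple regions, with the highest peak for REST, whose reads placed the regions.

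Few triple regions stood out for REST when the other 3 libraries served as the background. The REST reads of each window were set against the pooled Ring1b, H4K20me3 and MCAF1 reads, scaled to the REST depth, at the same probability and a ratio of at least 5. Over all REST regions 38.7% passed. Of the triple regions 8 of 365 passed (2.19%, 0.951% to 4.27%), against 26 of 394 regions with Ring1b only (6.60%, 4.36% to 9.52%), 4 of 104 with H4K20me3 only (3.85%, 1.06% to 9.56%), 719 of 1199 regions without other calls (59.97%, 57.1% to 62.8%) and 281 of 302 strong regions (93.0%, 89.6% to 95.6%). The choice used reads of the same libraries and asked for high Ring1b and H4K20me3 in the triple regions, so this order is a description of it. Under other settings the share of triple regions ran from 0% with windows of 500 bp to 7.52% without a REST limit. Ring1b passed the same comparison in 30 triple regions (8.22%, 5.61% to 11.5%). H4K20me3 passed in 0 of 365, which allows a share of up to 1.01% (exact 95% limit). MCAF1 could not pass in any, because a passing window would have been a MCAF1 region and the choice excluded those. In 327 regions (89.6%, 85.99% to 92.5%) none of the 4 libraries passed.

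Of the 8 regions that passed for REST, 7 had REST folds between 16.6 and 19.5. One was on chromosome 8 at 114827001–114829000, with 43 REST reads (18.2-fold, 13.2 to 24.5), 8 Ring1b reads (3.42-fold, 1.48 to 6.74), 27 H4K20me3 reads (4.96-fold, 3.27 to 7.22) and 16 MCAF1 reads (1.93-fold, 1.10 to 3.13). Another was the region on chromosome 11 at 74988501–74990500, with 47 REST reads (19.2-fold, 14.1 to 25.5), 27 Ring1b reads (fold interval 6.59 to 14.6), 32 H4K20me3 reads and 7 MCAF1 reads (0.878-fold, 0.353 to 1.81). In these 7 regions the REST interval lay above those of H4K20me3 and MCAF1. It lay above that of Ring1b only in the region on chromosome 8, and overlapped it in the others. On chromosome 2 at 171732501–171734000 the Ring1b fold (17.4, 11.5 to 25.4) was higher than the REST fold (16.6, 11.3 to 23.5). The remaining one of the 8 was on chromosome 19 at 47069001–47070500, with 21 REST reads (7.82-fold, 4.84 to 11.96) and the lowest MCAF1 fold of all triple regions (7 reads, 0.763-fold). Its highest REST window held 11 Ring1b reads (4.42-fold) and 3 H4K20me3 reads (0.454-fold, 0.0936 to 1.33), and the H4K20me3 summit lay 1150 bp away. These 8 regions were listed after their values were seen.

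When regions were called from the reads of 1 strand, the reads of the other strand gave values that had no part in the calls. This alternative was chosen after the data were examined. With the square root of the probability as threshold, 633 triple regions were called on the plus strand and 645 on the minus strand, and these overlapped 210 and 221 of the 365. REST fell from a median of 9.65-fold on the calling strand to 6.12-fold on the other (5.63 to 6.54) for plus-strand calls, and from 9.66-fold to 6.41-fold (6.08 to 6.70) for minus-strand calls. Ring1b kept 10.97-fold of 11.5-fold and 11.2-fold of 11.3-fold, and H4K20me3 kept 5.70-fold of 6.16-fold and 5.97-fold of 6.10-fold. The REST value fell in a like manner in regions without other calls, to 6.61-fold and 6.89-fold. REST thus had a lower median on the strand that was not used, in triple regions and in regions without other calls alike. All libraries were read in the window with the highest REST fold on the calling strand. Only REST was therefore read at its own maximum, and the smaller losses of Ring1b and H4K20me3 cannot be set against that of REST.

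Most triple regions lay outside broad Ring1b domains. With Ring1b regions joined across gaps of up to 10 kb, 30 triple regions (8.22%, 5.61% to 11.5%) lay in 28 of the 429 domains longer than 10 kb. The share was 4.83% with windows of 500 bp and 16.5% with the genome mean as the only background. Over all REST regions the share in such domains was 5.35%, and it was 11.2% (8.23% to 14.7%) in REST regions with Ring1b only and 3.31% (1.60% to 6.01%) in strong regions. The widest of the 28 covered 40 kb of chromosome 2 (17943001–17983000), and the triple region at its edge (17982501–17984000) had 10.8-fold REST (17 reads), 5.57-fold Ring1b (12 reads), 6.21-fold H4K20me3 (24 reads) and 3.12-fold MCAF1 (17 reads). A domain of 38 kb on chromosome 8 (108142501–108180500) held 2 triple regions. At the first, 108148001–108149000, the folds were 7.13 for REST, 13.3 for Ring1b, 6.84 for H4K20me3 and 2.71 for MCAF1, and the second was the widest triple region described above. Joined H4K20me3 regions formed domains longer than 10 kb around 23 triple regions (6.30%, 4.04% to 9.31%), against 8 of the 104 regions with H4K20me3 only (7.69%, 3.379% to 14.6%). The share was 0.761% (0.157% to 2.21%) in regions with Ring1b only, a set whose choice excluded H4K20me3 regions.

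Gaps between triple regions are given as a description, since they were not measured for other sets of REST regions or set against an even scatter. Whether triple regions lay closer together or farther apart than other REST regions was therefore not tested. The median gap to the nearest other triple region was 1197500 bp, and 6 of 365 lay within 10 kb of another (1.64%, 0.606% to 3.54%). Within 100 kb of another lay 53 (14.5%, 11.1% to 18.6%). A strong REST region lay within 10 kb of 3 (0.822%, 0.170% to 2.38%). Close pairs were found on chromosome 16 (30519001–30520000 and 30520501–30521500), chromosome 5 (33969001–33970000 and 33974501–33975500) and chromosome 18 (36685001–36686500 and 36686501–36688000). The 2 regions of each pair overlapped the same joined Ring1b stretch, and those on chromosome 18 abutted without a gap.

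Chromosomes 8 and 11 held the most triple regions, with 40 and 38. Per 100 Mb of covered sequence this was 34.3 (exact 95% Poisson interval 24.5 to 46.7) and 33.5 (23.7 to 46.03), against 5.35 (1.74 to 12.5) on chromosome 15 with 5 regions and 1.75 (0.212 to 6.33) on the X chromosome with 2. As a share of the REST regions of the chromosome, the triple regions made up 20.9% on chromosome 8, 15.7% on chromosome 11, 20.6% on chromosome 6 (27 regions), 19.8% on chromosome 10 (25 regions), 8.81% on chromosome 4 (17 regions) and 4.63% on chromosome 15. Chromosome 4, with 193 REST regions, held about as many REST regions as chromosome 8, with 191. Read density moved with these numbers in part. Mean reads per covered window, over the genome mean, were 1.18 (REST), 1.195 (Ring1b), 1.24 (H4K20me3) and 1.21 (MCAF1) on chromosome 8, and 1.29, 1.37, 1.35 and 1.29 on chromosome 11. They were 0.415, 0.387, 0.324 and 0.370 on the X chromosome, and on chromosome 15 they lay between 1.02 and 1.05. The part of read density in the numbers of triple regions was not tested.

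**Figure D5:**
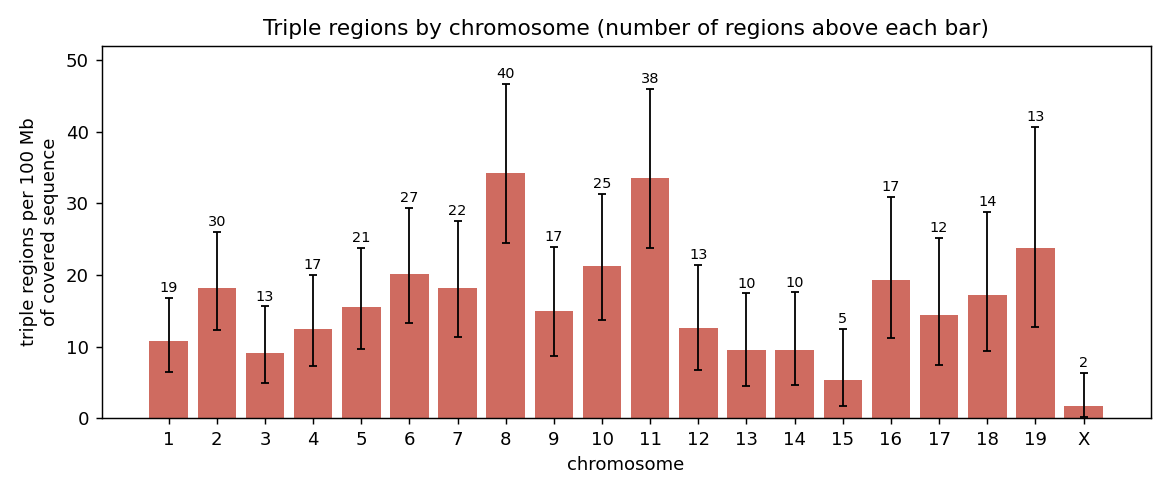
Triple regions per 100 Mb of covered sequence on each chromosome, with exact 95% Poisson intervals and the number of regions above each bar; chromosome Y, which held 0, is left out. Chromosomes 8 and 11 stand at 34.3 and 33.5, and the X chromosome at 1.75.

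Repeated reads at the same position and strand, which the choice set aside, made up 14.6% of REST reads in the triple regions (13.9% to 15.4%), against 12.6% of all nuclear REST reads, 16.2% in REST regions without other calls (15.8% to 16.6%) and 25.8% in strong REST regions (25.3% to 26.3%). For Ring1b the share was 6.56% (6.11% to 7.02%), against 6.31% in the whole library. It was 3.17% for H4K20me3 (2.88% to 3.47%), against 2.06%, and 13.1% for MCAF1 (12.5% to 13.8%), against 12.2%. The share was above that of the whole library for REST, H4K20me3 and MCAF1, and for Ring1b the interval included the library's share.

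Across the 365 triple regions the 4 folds were weakly correlated. Spearman correlations of the folds in the highest REST window were 0.263 between REST and Ring1b, 0.156 between REST and H4K20me3, 0.256 between Ring1b and H4K20me3, and between 0.094 and 0.122 for the 3 pairs with MCAF1. The regions share libraries and local read coverage, the counts are low and the folds are bounded by the choice, so these weak values are given as a description. The highest Ring1b fold of 72.9 lay beside 8.58-fold REST, 6.24-fold H4K20me3 and 2.95-fold MCAF1 (chromosome 8 at 28445001–28446000), and the highest H4K20me3 fold of 19.8 beside 10.3-fold REST, 18.6-fold Ring1b and 3.55-fold MCAF1 (chromosome 4 at 84676501–84677500). Both of these regions were picked after their values were seen.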

How the data were processed

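Chromatin immunoprecipitation sequencing was done on V6.5 cells with 4 antibodies. Per the file headers, the authors aligned reads with Bowtie (version not given in the sources used here) to mm8 with up to 2 locations reported, 2 seed mismatches and a seed of 26 bases (REST, Ring1b) or 36 bases (MCAF1, H4K20me3). As deposited, each value is a signed position of a read, neither a count per feature nor normalised, and was read as counting from 0; printed coordinates count from 1. It is unknown here whether a minus-strand position is the leftmost base. Per the labels' protocols, fragments averaged 500 bp and were amplified over 18 cycles.

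Reads with 1 location were kept once per position and strand and moved 75 bp in the 3′ direction. Windows of 1000 bp every 500 bp were enriched at a Poisson probability of at most 1e-09 and at least 5 times background, the larger of the genome mean and the 1 Mb mean over windows with any read. Overlapping windows were joined, and an overlap of 1 bp counted as shared. Mitochondrial reads were left out. Density is reads per bp over the genome mean. Intervals are exact 95% intervals (Clopper-Pearson or Poisson, or order statistics for medians), and PCR reads are not independent molecules. With 1 library per antibody nothing was tested. Regions named were the 6 highest by the smallest of 3 folds, the 3 widest, the 3 highest and lowest by MCAF1, the 3 just inside and outside the REST limit, the 3 lowest for REST and the 3 in the widest Ring1b domains; the text gives examples of each group. The regions and lists were chosen with earlier results of these data known. Nearest genes and sequences were not used here, because the reference tables at hand are GRCm38 and not mm8. The detection and strand steps were checked on simulated data. Python 3.11.15, numpy 2.4.6, scipy 1.17.1, pandas 2.3.3 and matplotlib 3.10.9 were used.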

Additional observations from a re-analysis of the deposited data

Results flagged for a closer look

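Reads with 2 reported locations had no part in the regions, and any number of them above 0 is listed here, since there was no control library to set them against. Entries of such reads inside the triple regions numbered 193 for REST, 300 for Ring1b, 95 for H4K20me3 and 112 for MCAF1. They made up 2.15% of all entries there for REST (exact 95% interval 1.86% to 2.47%), 2.54% for Ring1b (2.27% to 2.84%), 0.686% for H4K20me3 (0.555% to 0.837%) and 1.07% for MCAF1 (0.885% to 1.29%), against 12.02%, 10.8%, 6.88% and 6.41% in the whole libraries. In REST regions with Ring1b only the shares were 5.73%, 7.52%, 2.52% and 3.61%. The choice asked for many reads with 1 location, which lowers these shares, so they do not show that such entries were sparse. Per bp, entries with 2 locations in the triple regions stood at 2.03 times their genome mean for REST (1.75 to 2.34) and 3.86 times for Ring1b (3.44 to 4.32). They stood at 0.833 times for H4K20me3 (0.674 to 1.02) and 0.671 times for MCAF1 (0.552 to 0.807).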

How the results depend on the processing

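Of 134 values recomputed under other settings, 92 stayed within their interval or, for the number of regions, within 1.5 times of 365, and 42 moved; 1 of the 14 alternatives that rebuilt the regions was added after the data were examined (an overlap of 1000 bp), and 1, an overlap of 500 bp, could change nothing because region ends lie on a 500 bp grid. The number of triple regions depended most on the threshold: 1225 at 1e-06 and 110 at 1e-12. It was 596 with all reads kept, 145 with windows of 500 bp, 637 with the genome mean as the only background, 175 with libraries thinned to 1 depth and 169 with MCAF1 excluded at 1e-06 and 3 times. Of the 365 regions, 37.3% were found again after thinning, 28.2% at 1e-12, 25.8% with windows of 500 bp 46.3% with the stricter MCAF1 exclusion and 56.4% with the genome mean only, where the number rose. Median densities (main: REST 11.8, Ring1b 15.4, H4K20me3 8.27, MCAF1 4.17) moved to REST 9.55, Ring1b 13.1 and MCAF1 3.75 at 1e-06, and to REST 14.7, Ring1b 17.2 and H4K20me3 9.01 at 1e-12. They moved to MCAF1 3.89 with a fold floor of 3, to REST 11.02 and MCAF1 3.91 with all reads kept, to REST 11.8 (11.752 against 11.756) with a shift of 50 bp, and to REST 11.1 with reads of 1 or 2 locations. With windows of 500 bp they were REST 17.6, Ring1b 19.2, H4K20me3 9.24 and MCAF1 4.99. With the genome mean only they were REST 10.8, Ring1b 13.4, H4K20me3 7.09 and MCAF1 3.55. After thinning REST and H4K20me3 were both 11.2, and under the stricter MCAF1 exclusion MCAF1 was 3.34. The share called for REST against the other 3 libraries moved from 2.19% to 0% (up to 2.51%) with windows of 500 bp, 0.471% with the genome mean only, 0.571% after thinning, 0.293% with a REST limit of 15, 7.52% without a limit and 0.656% with an overlap of 1000 bp. The share in Ring1b domains moved from 8.22% to 13.1% at 1e-06, 5.45% at 1e-12, 4.83% with windows of 500 bp and 16.5% with the genome mean only. The share of entries with 2 locations moved to 2.69% for REST, 2.84% for Ring1b and 0.858% for H4K20me3 when regions were widened by 500 bp. Apart from the numbers of regions, which follow from the stricter or looser choice, the cause was not tested. No paired analysis was possible because there was 1 library per antibody. At the REST depth a median of 18 reads sets a wide interval on each region's fold.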
